A study of Mus musculus with 2 samples.

Results

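Non-cycling thymocyte-like cells are the cells of the aortic leukocyte libraries that carry transcripts of immature T lymphocytes and few transcripts of the cell cycle. They were chosen by their own UMI counts (unique molecular identifiers, each counting 1 captured RNA molecule): at least 2 UMIs of Dntt, Rag1 and Arpp21 together, at most 2 of Cd79a, Cd79b and Ms4a1 (B cells), at most 2 of C1qa, C1qb and C1qc and at most 2 of Lyz2 (macrophages and monocytes), at most 2 of 6 mitosis genes and at most 3 of 6 replication genes. The rule found 197 of 2957 cells, 101 of 2061 in the WD library and 96 of 896 in the chow library. The study sorted viable CD45+ leukocytes from digested atherosclerotic aortas of ApoE-/- C57BL6/J mice fed WD or a chow diet and counted the 3' ends of their RNA in single droplets. Both groups thus lack ApoE and differ in diet; WD is spelled as the labels give it, and the labels state no age, sex or time on diet. Each diet has 1 library made from 10 pooled aortas, so no p-value or standard error across diets exists, and every interval below is an exact 95% interval that covers counting error only.

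Thymocytes are developing T cells. They rearrange the genes of their antigen receptor with the recombinase Rag1/Rag2 while the polymerase Dntt adds bases at the joints, first at a stage without CD4 and CD8, where Notch signals and the pre-T cell receptor act, and then at a stage where a single cell carries both CD4 and CD8. Cells that pass selection lose the recombinase, keep CD4 or CD8 alone and gain the receptors with which mature T cells leave the thymus and recirculate. These stages are usually found in the thymus; the labels name the aorta as the tissue of both libraries.

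The promoters of the given marker genes, of which Rag1 is also a gene of the rule, are shown as the regulatory sequence next to them, and E-box motifs are the sites that E proteins such as Tcf3 and Tcf12 bind. The sequences are RefSeq's (GRCm38.p6) and run from 250 bases before to 50 after the gene start, with capitals marking CAGGTG and CAGCTG, both searched on both strands (CACCTG is the reverse of CAGGTG). Rag1, on chr2:101649483-101649782 (minus strand), Ccr9, on chr9:123766961-123767260 (plus strand), and Ldhb, on chr6:142507908-142508207 (minus strand), had an entry. Tubb2b was named only.

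Rag1: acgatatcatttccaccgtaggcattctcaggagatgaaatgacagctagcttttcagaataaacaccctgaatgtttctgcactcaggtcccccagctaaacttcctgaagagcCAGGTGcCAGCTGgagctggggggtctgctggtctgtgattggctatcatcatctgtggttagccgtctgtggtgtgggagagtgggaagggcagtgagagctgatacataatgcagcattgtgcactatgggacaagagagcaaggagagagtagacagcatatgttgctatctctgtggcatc
Ccr9: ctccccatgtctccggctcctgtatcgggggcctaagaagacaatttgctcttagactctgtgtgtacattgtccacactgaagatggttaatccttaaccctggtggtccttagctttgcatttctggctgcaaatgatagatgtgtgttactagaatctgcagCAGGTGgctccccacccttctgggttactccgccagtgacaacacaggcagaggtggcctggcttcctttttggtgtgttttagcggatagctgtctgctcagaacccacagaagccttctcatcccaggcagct
Ldhb: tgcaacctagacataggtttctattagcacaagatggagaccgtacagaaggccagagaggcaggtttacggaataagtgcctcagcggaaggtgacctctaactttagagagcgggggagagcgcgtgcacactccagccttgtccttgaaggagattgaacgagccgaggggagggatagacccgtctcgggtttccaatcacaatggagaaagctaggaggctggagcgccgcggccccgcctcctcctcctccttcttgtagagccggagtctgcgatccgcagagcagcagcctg

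The Rag1 window holds CAGGTG with its first base 135 bases before the start and CAGCTG 128 bases before it, and the 2 motifs do not overlap. The Ccr9 window holds CAGGTG 85 bases before the start, and the Ldhb window holds neither motif. CAGGTG lies in 20.2% of all 32851 mouse promoter windows of the same length, CAGCTG in 16.3% and both in 3.57%, so these matches describe letters and are no evidence of binding.

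The genes of the rule are given as what chose the cells. Dntt had 388 UMIs in 93 of 101 WD cells and 424 UMIs in 92 of 96 chow cells. Rag1, the recombinase, had 117 UMIs in 60 WD cells and 128 in 62 chow cells, and Arpp21, an RNA-binding phosphoprotein, had 167 in 76 and 142 in 69. The 3 genes together had a median of 6 UMIs per WD cell and 7 per chow cell. Just inside the threshold, at a sum of 2, lay 10 WD and 6 chow cells, of which 9 and 5 held a Cd8a or Cd8b1 UMI. Just outside it, at a sum of 1, lay 33 WD and 27 chow cells, of which 22 and 17 held one. Ccr9, Ldhb and Tubb2b together had a median of 3 UMIs in WD and 3.5 in chow just inside, and 0 in both libraries just outside.

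Non-cycling thymocyte-like cells made up 4.90% of WD cells (interval 4.01 to 5.92) and 10.7% of chow cells (8.77 to 12.9). Cycling thymocyte-like cells, which pass the same rule but exceed the mitosis or replication limit, made up 5.09% of WD cells (105 cells) and 10.4% of chow cells (93). Shares of 1 library sum to a whole: B-like cells made up 22.3% of WD and 12.8% of chow cells and macrophage-like cells 9.61% of WD and 3.46% of chow cells. The diets differ in both thymocyte-like groups by more than counting error, and with 1 library each the diet cannot be told apart from the pool, the dissection or the library.

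The cells were shallow. They held a median of 1824 UMIs in WD (1420 to 10638) and 2033 in chow (1521 to 11459), against 6685 and 8063 in cycling thymocyte-like cells and 2915 and 3381 in mature T-like cells (at least 2 UMIs of Cd3d, Cd3e and Cd3g, none of Dntt, Rag1 or Arpp21, and the same limits on the other genes). Ribosomal protein genes gave 25.3% of their UMIs in WD and 23.8% in chow. The shares were 26.4% and 25.0% in cycling thymocyte-like cells and 36.2% and 36.5% in mature T-like cells. Across all cells kept, the median was 3191 UMIs in WD and 3747.5 in chow. The libraries shared 3 barcodes, none of them in these cells.

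The markers are given as a description. Ccr9, Ldhb and Tubb2b, which are among the 14 below, were named for these cells with earlier results of these data known. Their high shares are thus no separate support for the label. Of 14 thymocyte markers outside the rule, the median cell held 9 in both libraries, and 97 of 101 WD and 95 of 96 chow cells held at least 5. The median was 9 in WD and 10 in chow for cycling thymocyte-like cells, 3 in both for mature T-like cells, and 1 in WD and 2 in chow for B-like cells. Ccr9, the receptor for the thymic and gut chemokine Ccl25, was found in 74.3% of WD cells (64.6 to 82.4) and 69.8% of chow cells (59.6 to 78.7), against 6.91% of WD and 12.1% of chow mature T-like cells. Ldhb, the lactate dehydrogenase subunit that favours lactate use, was found in 70.3% of WD and 81.3% of chow cells. Tubb2b, a beta tubulin, was found in 46.5% and 55.2%. In the deeper cycling thymocyte-like cells, Ccr9 was found in 40.0% of WD and 60.2% of chow cells. Ldhb was found there in 80.0% and 82.8%, and Tubb2b in 46.7% and 55.9%. In B-like cells (at least 3 UMIs of Cd79a, Cd79b and Ms4a1, and none of Dntt, Rag1, Arpp21 or the Cd3 genes), which should lack all 3 genes and have median depths of 2414.5 UMIs in WD and 2756 in chow, the shares were 0.435% and 1.74% for Ccr9, 0 of 460 and 0 of 115 for Ldhb (a floor of 3 cells puts the UMI-positive share at 0.652% and 2.61% at most), and 3.04% and 1.74% for Tubb2b.

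The other recombinase subunit, Rag2, was seen in 12 WD cells (13 UMIs) and 17 chow cells (17 UMIs), but in 0 of 579 WD and 1 of 264 chow mature T-like cells, which were gated on no UMI of Rag1. The B lineage genes Vpreb3 and Pax5 had no UMI in either library, while B-like cells held Vpreb3 in 25.9% of WD and 20.0% of chow cells and Pax5 in 25.9% and 28.7%. Of the 12 B precursor genes read, 7 had UMIs in WD and 5 in chow, most of them of Sox4 and Lef1, which T cells also express, with 0 to 14 UMIs per WD cell and 0 to 8 per chow cell. Of the 11 thymic epithelial genes, 4 in WD and 5 in chow had a UMI, with 0 to 2 and 0 to 1 UMIs per cell; the CD45 sort would remove that cell type. Macrophage and monocyte genes had 199 UMIs in 21 WD cells and 47 in 14 chow cells, with up to 63 and 21 in 1 cell. The mature B list had 1760 UMIs in 91 WD cells and 1802 in 94 chow cells. The median was 3 and 5 and the highest value 826 and 822 per cell. Ly6d, which is in this list, gave 394 of these UMIs in 76 WD cells and 499 in 79 chow cells. Cd74 gave 695 in 23 WD cells and 632 in 39 chow cells. Stroma genes had 32 and 15 UMIs and erythroid genes 3 and 6.

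**Figure D1:**
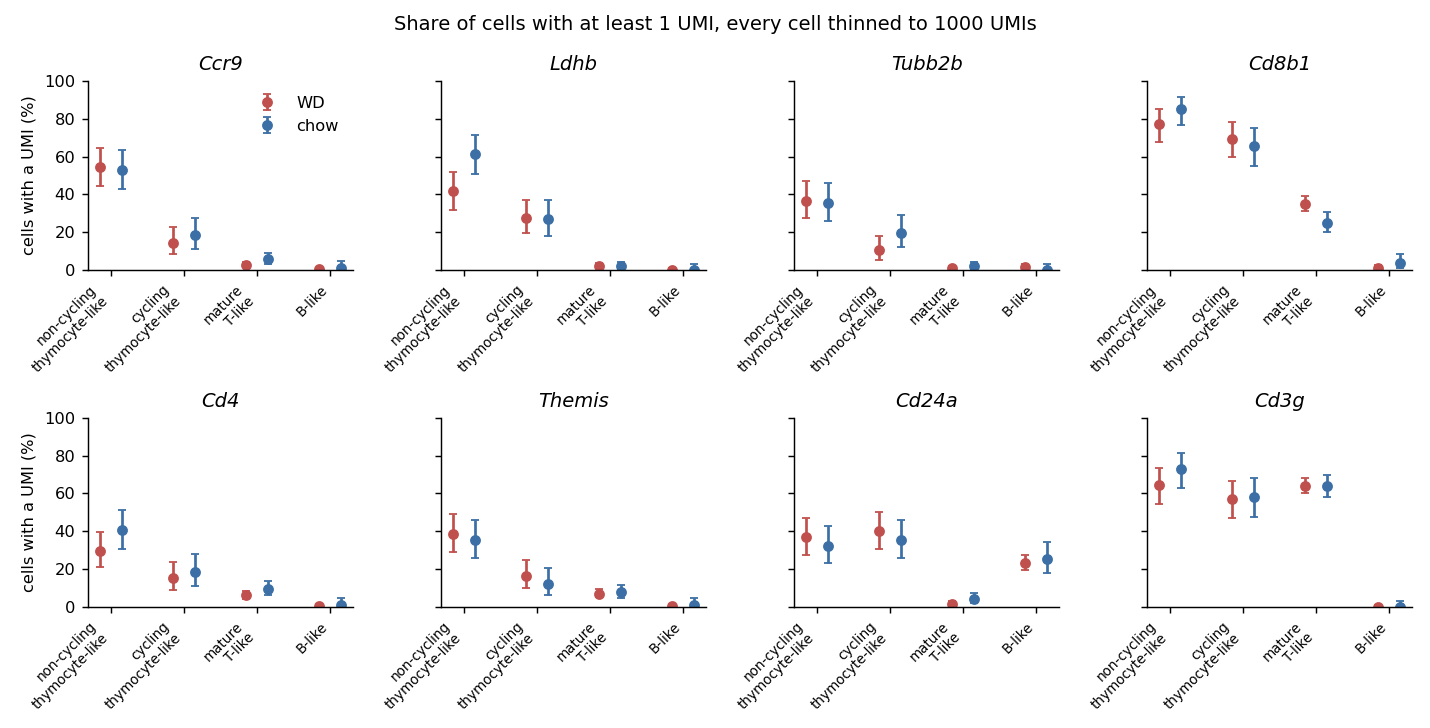
Share of cells with at least 1 UMI of 8 genes (percent, y axis) in non-cycling thymocyte-like, cycling thymocyte-like, mature T-like and B-like cells (x axis), WD in red and chow in blue, after every cell was thinned to 1000 UMIs; bars are exact 95% intervals. Ccr9 was at 54.5% of WD and 53.1% of chow non-cycling cells after thinning and at 14.3% and 18.3% of cycling cells, while Cd3g lay between 57.1% and 72.9% in all T lineage groups (mature T-like and B-like cells were gated on Cd3 genes).

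At one depth of 1000 UMIs, Ccr9 stayed in 54.5% of WD and 53.1% of chow cells, against 14.3% and 18.3% of cycling cells, and Ldhb in 41.6% and 61.5%, against 27.6% and 26.9%. Cd3g, a subunit of the T cell receptor complex, was in 64.4% of WD and 72.9% of chow cells against 57.1% and 58.1% of cycling cells and 64.1% and 64.0% of mature T-like cells. Mature T-like cells were gated on Cd3 genes and B-like cells on their absence, so their Cd3g values are fixed by the gates.

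Cd4 and Cd8 were found in the same cell far more often than in mature T-like cells. UMIs of Cd4 and of Cd8a or Cd8b1 occurred together in 48 of 101 WD cells (47.5%, 37.5 to 57.7) and 58 of 96 chow cells (60.4%, 49.9 to 70.3). In mature T-like cells they did so in 1.38% of WD and 6.44% of chow cells, and in B-like cells in 0 of 460 and 0 of 115. Cells with Cd8 alone numbered 42 in WD and 31 in chow, cells with Cd4 alone 1 and 2, and cells with neither 10 and 5. After thinning to 1000 UMIs both were seen in 28.7% of WD and 39.6% of chow cells, so these shares move with depth. Cycling thymocyte-like cells held both in 46.7% of WD and 52.7% of chow cells at their own, greater depth. Thinned, they held both in 14.3% and 18.3%, and mature T-like cells in 0.345% and 0.379%.

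**Figure D2:**
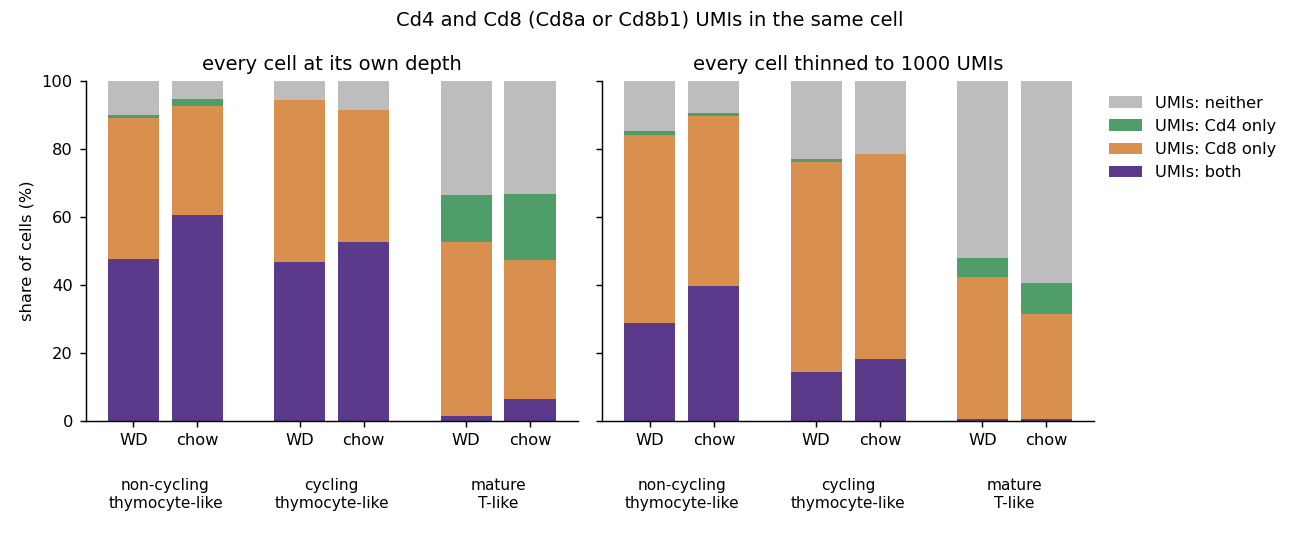
Share of cells (percent, y axis) with UMIs of Cd4 and Cd8, of Cd8 alone, of Cd4 alone or of neither, for 3 cell groups with WD left of chow, at each cell's own depth (left) and after thinning to 1000 UMIs (right). At own depth both genes were found in 47.5% of WD and 60.4% of chow non-cycling cells. Cycling cells had 46.7% and 52.7%, and mature T-like cells 1.38% and 6.44%.

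Not all of the 197 cells looked alike in what else they carried. In 11 WD cells and 2 chow cells, transcripts of other leukocytes were high: at least 1 UMI of Siglech, a marker of plasmacytoid dendritic cells, in 3 WD cells, at least 20 UMIs of MHC class II genes in 4 WD and 2 chow cells, and at least 20 UMIs of Ccl4, Ccl5 and Nkg7, genes of effector lymphocytes, in 7 WD cells and 1 chow cell. These limits were set after the values had been seen. The 13 cells held a median of 5354 UMIs in WD and 9955.5 in chow, against 1738 and 1994 in the rest, and 22.3% of the WD and 8.03% of the chow UMIs of the whole group. Their Dntt, Rag1 and Arpp21 sum had a median of 3 in WD and 4 in chow, against 6 and 7 in the rest. The 3 WD cells with Siglech held 0, 1 and 0 UMIs of the Cd3 genes, 23, 17 and 19 of Bst2, and 18, 0 and 10 of Cd8a and Cd8b1. No cycling thymocyte-like cell met these limits (0 of 105 in WD and 0 of 93 in chow). Of mature T-like cells, 44.6% in WD and 33.3% in chow met them, mostly through Ccl4, Ccl5 and Nkg7 (42.3% and 33.0%). The doublet caller Scrublet marked 2 of all WD cells (0.0970%) and 3 of all chow cells (0.335%), against expected shares of 1.66% and 0.727%, and none of the 13. Whether they are doublets or cells of another type was not tested, and the results they move most are also given without them.

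Set against mature T-like cells of the same library, 10.6% of 5522 genes measured were at least 2-fold higher and 5.51% at least 2-fold lower in both libraries (12.5% and 8.18% of the genes measured without the set-aside cells). All 17 measured genes of the double-positive stage list were past 2-fold higher in both. Their median log2 ratio was 3.16 in WD and 3.58 in chow, against 0.29 and 0.35 for all genes. The list holds the given markers Ccr9, Ldhb and Tubb2b and was chosen with earlier results of these data known. Its counts and medians, here and below, are thus a description. Endou, an RNA endonuclease, had 182 UMIs in WD and 193 in chow cells (666 and 778 CPM, UMIs scaled to a common library total), against 4.29 and 7.05 CPM in mature T-like cells, a log2 ratio of 7.13 in WD and 6.63 in chow. Aqp11, an aquaporin of inner membranes, reached 329.5 CPM in WD and 459.7 in chow, against 2.14 and 2.01 CPM. Ldhb was 25.7-fold higher in WD (18.3 to 36.9) and 33.0-fold in chow (21.9 to 51.6). Tubb2b was 34.2-fold higher in WD (20.4 to 60.2) and 44.1-fold in chow (25.0 to 84.8), and Ccr9, at 681 CPM in WD and 641 in chow against 35.9 and 49.3, had log2 ratios of 4.23 and 3.68.

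Other genes of the double-positive stage list were among them. Bcl2l1, a survival gene of double-positive cells, had log2 ratios of 1.72 in WD and 2.30 in chow. Themis, a regulator of receptor signals during selection, had 2.58 and 2.66, Cd24a, a surface protein lost on maturation, 4.33 and 4.14, and Cd1d1, which presents lipids to natural killer T cell precursors, 2.13 and 1.77. Bcl2, the survival gene of mature T cells, ran the other way: 103 CPM in WD and 40.3 in chow, against 286 and 234 in mature T-like cells, log2 ratios of -1.47 and -2.51. Ptcra, the pre-T cell receptor alpha chain, belongs to the double-negative and pre-TCR list. It had 29 UMIs in WD and 16 in chow cells, against 2 and 0 in mature T-like cells.

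Of the recombination and end-joining list, outside the rule, 4 of 14 genes had enough UMIs to be measured, 2 of them past 2-fold higher and 0 lower, with medians of 0.95 in WD and 0.63 in chow. The other 2 were Hmgb2 (-0.25 and -0.55) and Trp53bp1 (0.43 and -2.18). Xrcc6, the Ku70 subunit that binds broken DNA ends, was 24.1-fold higher in WD (14.3 to 42.5) and 50.7-fold in chow (22.3 to 143), with 67 UMIs in 50 WD cells and 76 in 50 chow cells. Hmgb1, a DNA-bending cofactor of the recombinase, had log2 ratios of 1.47 and 1.80. Lig4, the ligase of the joining step, was found in 9 WD cells (9 UMIs) and 7 chow cells (9 UMIs), too few for the count of measured genes.

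Of 15 T lineage transcription factors, 7 were past 2-fold higher in both libraries and 0 lower. Tcf7, which sets up the T lineage, was 5.61-fold higher in WD (4.80 to 6.55) and 6.25-fold in chow (5.27 to 7.43), and Satb1, an organiser of chromatin in thymocytes, 3.96-fold (3.48 to 4.50) and 4.46-fold (3.88 to 5.12). Myb, needed in immature T cells, was 20.8-fold higher in WD (12.8 to 34.9) and 16.8-fold in chow (8.31 to 37.6). The E protein gene Tcf12 had log2 ratios of 2.37 and 2.66, and Id3, which binds E proteins and is induced by receptor signals, 3.40 and 2.82. Lef1, the relative of Tcf7, was at 179 CPM in WD and 181 in chow cells, against 305.5 and 342 in mature T-like cells, short of 2-fold.

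Of 18 signalling genes of the T cell receptor, which include the 3 Cd3 genes of the gate, 2 were past 2-fold higher and 0 lower, a share near the 10.6% of all genes that were higher. They were Lck, the first kinase of the pathway, at 1779 CPM in WD and 1787 in chow cells, against 642 and 630.2, and Rasgrp1, the exchange factor that links the receptor to Ras, with log2 ratios of 1.37 and 1.42. Zap70 was at 135 CPM in WD and 125 in chow cells, against 126 and 112.

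Genes of mature T cells were low. Of 13 genes of maturation and egress, 7 were past 2-fold lower and 0 higher, with a median of -1.57 in WD and -1.37 in chow (-2.65 in chow without the 2 set-aside cells). S1pr1, the receptor that lets T cells leave the thymus, had 13 UMIs in 6 WD cells and 3 in 3 chow cells, log2 ratios of -2.00 and -3.96, and 8 UMIs in WD without the set-aside cells. Il7r, the receptor for interleukin 7, had -1.91 and -3.13, and Ms4a4b, a membrane protein of mature T cells, -2.63 and -3.56 (-3.39 and -3.59 without the set-aside cells). Klf2, the factor that drives S1pr1, did not reach 2-fold (392 CPM in WD and 496 in chow, against 776 and 799). Of 8 chemokine receptor and guidance genes measured, 5 were past 2-fold lower, among them Cxcr6 (-2.91 and -2.92) and Cxcr3 (-2.15 and -2.49, with 4 UMIs in each library and 0 in WD without the set-aside cells), and Ccr9 was the one past 2-fold higher. Genes near absent in these cells reach the minimum only through mature T-like cells, which hold more UMIs in sum. A lower direction was thus favoured in advance for such genes.

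Of 16 MHC class I presentation genes, 4 were past 2-fold lower and 0 higher, and the other 12 did not pass. The 4 were H2-K1 (469 CPM in WD and 343 in chow, against 1593 and 1697), H2-D1 (1113 and 895, against 3058 and 3002), B2m, their shared light chain (2841 and 1919.6, against 5722 and 5529.6), and H2-Q7. Without the set-aside cells H2-K1 had log2 ratios of -2.49 in WD and -2.71 in chow, against -1.76 and -2.31 with them, H2-D1 -2.08 and -2.21, against -1.46 and -1.74, and H2-Q7 -2.44 and -3.44, against -1.24 and -3.06. Psmb8, an immunoproteasome subunit of the same list, was at 564 and 444 CPM, against 518 and 451.

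Of 16 activated and effector memory genes, 8 were past 2-fold lower and 1 higher, with medians of -1.28 in WD and -1.89 in chow (-2.33 in WD without the set-aside cells). The higher one was Anxa2, an annexin (1.57 and 2.37). Of 13 genes of agonist-selected and innate-like T cells, 9 had enough UMIs, mostly from mature T-like cells. Their lower direction was largely fixed by this, so the count is a description. Of the 9, 7 were past 2-fold lower, against 5.51% of all genes measured. Cd163l1, a scavenger receptor of gamma delta T cells, had 0 UMIs in both libraries against 149 and 75 in mature T-like cells, at least 7.27-fold lower in WD and 6.24-fold in chow at a floor of 3 UMIs per group. Zbtb16, Foxp3 and Il17a also had 0 UMIs in these cells.

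The genes with the highest ratios over mature T-like cells were largely outside the lists. The 12 highest, in order of the smaller of both ratios, included Chrna9, Ly6d, Rapgef3 and Myl10. Chrna9, a nicotinic receptor subunit, had 47 UMIs in WD and 52 in chow cells, against 1 and 0 in mature T-like cells. Ly6d, a lymphocyte surface protein, had 394 and 499 UMIs, against 19 and 10. It was also found in 85.9% of WD and 80.0% of chow B-like cells. Rapgef3, the cyclic AMP sensor Epac1, had 40 and 55, against 0 and 2, and Myl10, a myosin light chain, 100 and 65, against 7 and 6. Gm525 had 23 UMIs in WD and 41 in chow cells and 0 in mature T-like cells, at least 52.4-fold higher in WD and 54.8-fold in chow. Tctex1d1, Wdr78, Gm15340, Dgkeos and Rp23-428n8.3 were also among the 12, with Endou and Aqp11. Dgkeos and Rp23-428n8.3 are annotated antisense to Dgke and Xrra1, and whether the counting used strand is not stated in the labels. Among the 12 lowest, Fgl2, Cd160, Klrc2, Klra7 and Casp4 had 0 UMIs in both libraries and Fasl had 1 in each.

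**Figure D3:**
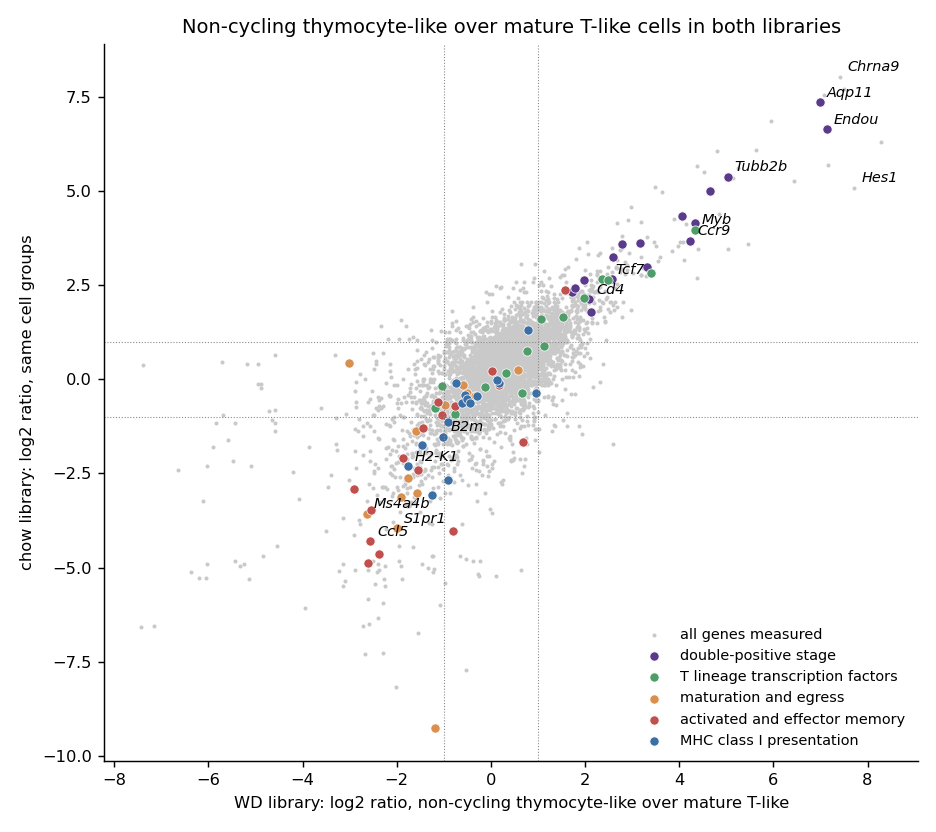
Log2 ratio of CPM of summed UMIs in non-cycling thymocyte-like over mature T-like cells in the WD library (x axis) and the chow library (y axis) for the genes measured, with genes of 5 lists coloured and dotted lines at 2-fold; genes of the rule and of the Cd3 gate are left out. Genes of the double-positive stage lie at the upper right and those of egress and effector memory mostly at the lower left. Ratios of genes with 0 UMIs on a side depend on the 0.5 UMIs added, which are scaled by each side's total.

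Against cycling thymocyte-like cells, 8.44% of 5333 genes were past 2-fold higher and 12.2% past 2-fold lower in both libraries (8.24% and 12% without the set-aside cells). Cell cycle genes outside the rule were low as the rule requires: 20 of 23 lower, with Ccnb1, Tk1, Spc25 and Rad51ap1 at 0 UMIs. Of 17 double-positive stage genes 7 were past 2-fold higher and 1, Mns1, lower, with medians of 0.74 in WD and 1.17 in chow, against -0.07 and -0.04 for all genes. Ccr9 was higher (log2 ratios of 2.66 and 1.76), as were Cd4 (1.31 and 1.72), Ldhb (1.01 and 1.60) and Tubb2b (1.46 and 1.56), while Tuba1b, the tubulin of dividing cells, was lower (-4.65 and -5.02).

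Genes of receptor signalling stood higher than in cycling cells, 8 of 18 past 2-fold and 0 lower, with medians of 1.19 in WD and 0.95 in chow. They included Cd28, the costimulatory receptor (1.75 and 1.65). Rag2 was at 47.6 CPM in WD and 68.6 in chow, against 52.2 and 53.9 in cycling cells. Of 14 immediate early and dissociation-induced genes, 10 were past 2-fold higher, among them Jun (2.11 and 2.15) and Junb (3.08 and 2.32); the part of handling in this was not tested. S100a4, Ccl5, Rgs1, Ctss, Bhlhe40 and H2-Eb1 had the highest ratios, and without the set-aside cells they had 10, 5, 10, 10, 4 and 3 in WD and 4, 16, 12, 9, 4 and 18 UMIs in chow.

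The 17 cells without Cd8 differed from the rest, for part of the genes in the same direction in both libraries. Cd69 went opposite ways (log2 ratios of -2.04 in WD and 1.46 in chow), as did Stmn1 (1.22 and -0.82). The 17 were not alike either. Among them, 1 WD and 2 chow cells held a Cd4 UMI, and a chow cell had 0 UMIs of Hes1 and of Myl10. With the set-aside cells left out, 10 of 90 WD cells (11.1%, 5.46 to 19.5) and 7 of 94 chow cells (7.45%, 3.05 to 14.7) held no Cd8a or Cd8b1 UMI, although they were deeper than the rest (median 4729.5 UMIs in WD and 4823 in chow, against 1686 and 1972). At the Cd8 rate of the other cells they would have held 236 Cd8 UMIs in WD and 150.3 in chow. The split was made after these values had been seen and is a description. Some cells lay near the limits on cycling, counted here with the set-aside cells. At a replication gene sum of 2 or 3, Cd8 was held by 2 of 6 WD and 3 of 3 chow cells. At a mitosis gene sum of 1 or 2, it was held by 8 of 13 WD and 12 of 14 chow cells. The part of cycling in the split was not tested. Of 2820 genes measured, 3.3% were at least 2-fold higher and 12.5% at least 2-fold lower in both libraries.

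Of 14 genes of the double-negative and pre-TCR list, 4 reached the minimum of 10 UMIs per library, mostly through the cells without Cd8, so that their direction was largely fixed by it and they are given by their values. Hes1, a direct target of Notch, had 201 UMIs in 9 of 10 WD cells and 179 in 6 of 7 chow cells, against 10 UMIs in 3 of 80 WD cells and 4 UMIs in 1 of 87 chow cells with Cd8. Per cell it ran from 0 to 46 UMIs in WD (median 19) and 0 to 51 in chow (median 19). Notch1, the receptor itself, had 13 UMIs in 8 of 10 WD cells and 11 in 5 of 7 chow cells, against 4 and 2 UMIs in the cells with Cd8. Il2ra, the CD25 chain that marks the double-negative stages in mice, had 16 and 8 UMIs, against 2 and 2, and Ptcra 20 and 8, against 9 and 8.

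Of genes outside that list, Myl10 had 93 UMIs in all 10 WD cells and 53 in 6 of 7 chow cells, against 7 and 12 UMIs in the cells with Cd8. Cdk6, a G1 kinase, had 28 and 13 UMIs, against 2 and 12, and Tnfsf11, the cytokine RANKL, 12 and 10, against 1 and 2. Of the 211 WD and 184 chow Hes1 UMIs in all non-cycling thymocyte-like cells, 201 and 179 thus came from 17 cells. Plac8, high in the WD library, had 57 of its 60 WD UMIs outside the set-aside cells here.

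Of 17 double-positive stage genes 15 reached the minimum, mostly through the more numerous cells with Cd8. A lower direction was thus favoured in advance for them, and the count is a description. In the 17 cells without Cd8, 10 of the 15 were past 2-fold lower and 1 higher (6 and 0 of 12 when thinned). The medians were -2.25 in WD and -2.17 in chow (-4.08 and -1.38 when thinned), against -0.27 and -0.38 for all genes. Tubb2b had 1 and 2 UMIs, against 84 and 138, Ldhb 5 and 7, against 148 and 203, and Ccr9 9 and 5, against 138 and 148. Satb1 had log2 ratios of -2.21 and -2.69 and Tcf7 -1.74 and -2.07. Cd24a was the gene of this list past 2-fold higher (1.27 and 1.68), and Dntt, of the rule, was found in all 10 and all 7. Cd3g was held by all 17, with 8 to 26 UMIs per WD cell and 3 to 21 per chow cell.

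Heat shock and immediate early genes stood higher in these cells as well: 7 of 14 early response genes and 4 of 8 heat shock genes were past 2-fold and 0 lower. Hspa1a, an inducible chaperone, had 255 UMIs in WD and 247 in chow, against 128 and 106 in the cells with Cd8, and Jun 146 and 121, against 87 and 111. Their part in the other differences was not tested. With every cell thinned, 0 of 5 heat shock genes measured and 7 of 12 early response genes were past 2-fold higher. With every cell thinned to 1000 UMIs, Hes1 kept log2 ratios of 7.73 in WD and 7.98 in chow and Myl10 5.24 and 3.83, while Ptcra had 2.57 in WD and -2.08 in chow.

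Cycling thymocyte-like cells, which played no part in the split, were split the same way. Of them, 6 WD and 8 chow cells held no Cd8 UMI, and Hes1 was found in all 6 and all 8, against 14 of 99 WD and 14 of 85 chow cells with Cd8 (14.1% and 16.5%). Myl10 was found in 5 of the 6 and all 8, against 17.2% and 16.5%. Il2ra was at 33.0 CPM in WD and 216 in chow cells without Cd8, against 3.89 and 28.1 with it. In WD this rested on 3 UMIs in 2 of 6 cells against 3 UMIs in 2 of 99. Notch1 was at 132 and 136 CPM, against 46.7 and 52.3. Ptcra was not alike in both libraries, at 198 CPM in WD and 34.1 in chow cells without Cd8, against 125 and 81.6 with it. The cells without Cd8 were deeper here too (median 16924.5 and 10159 UMIs, against 6431 and 7699). In mature T-like cells without Cd8, Hes1 was found in 0.727% of WD and 2.88% of chow cells.

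**Figure D4:**
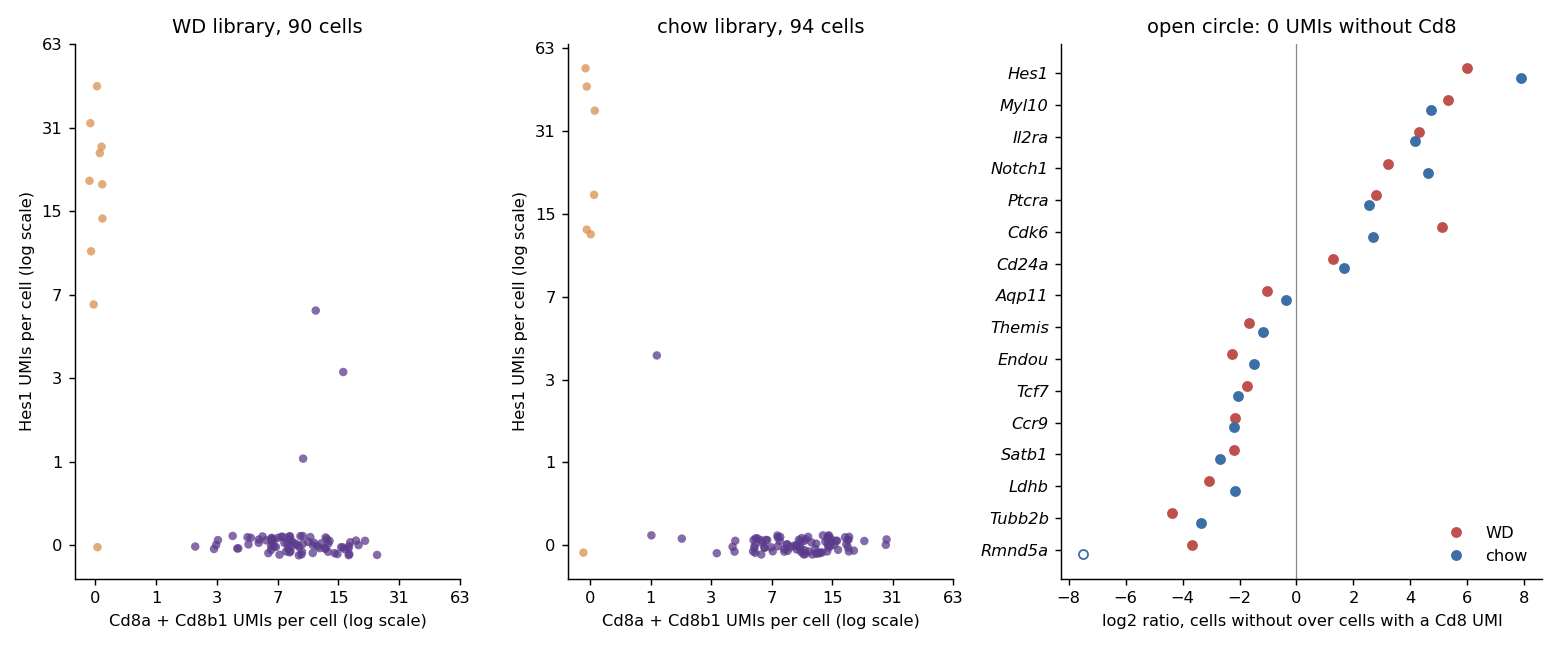
Left and middle, Hes1 UMIs per cell (y axis) against Cd8a plus Cd8b1 UMIs per cell (x axis), both on a log scale of UMIs plus 1 with points jittered, in 90 WD and 94 chow non-cycling thymocyte-like cells without the set-aside ones, orange without and purple with Cd8. Right, log2 ratio of cells without over cells with a Cd8 UMI for 16 genes (WD red, chow blue; open circles have 0 UMIs in the cells without Cd8), with Hes1 at 5.97 and 7.87.

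A sum of selection genes (Cd69, Itm2a, Ccr7 and Cd5, which receptor signals raise) described another range among the cells. It was 3 or more in 14 WD cells (13.9%, 7.79 to 22.2) and 12 chow cells (12.5%, 6.63 to 20.8), and 0 in 62 and 53; 12 WD and 15 chow cells lay at 2 or 3, near the limit. The cells at 3 or more were deeper (median 4576 UMIs in WD and 2699.5 in chow, against 1779.5 and 1891), and after thinning 5.94% and 5.21% reached it. Without the set-aside cells, 0.78% of 1026 genes measured were past 2-fold higher and 2.53% lower in both libraries. Cd2, an adhesion receptor, was higher (log2 ratios of 1.93 and 1.88), as was Lef1 (1.11 and 1.31). Cd4 and Cd8a had ratios below 1 in both libraries (-0.69 and -0.78 in WD, -1.63 and -1.64 in chow), short of 2-fold in WD. There Cd4 rested on 7 against 42 UMIs, with an interval that includes 1 (0.61-fold, 0.23 to 1.37). Cells with both Cd4 and Cd8, also without the set-aside cells, were 5 of 10 in WD at 3 or more (50%, 18.7 to 81.3). At 0 they were 28 of 59 (47.5%, 34.3 to 60.9). In chow they were 2 of 10 (20%, 2.52 to 55.6) against 35 of 53 (66.0%, 51.7 to 78.5).

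Of 3630 genes measured, 3.17% were at least 2-fold higher and 3.53% at least 2-fold lower in WD than in chow, with a median log2 ratio of -0.04 between the diets. Of 17 double-positive stage genes 0 were higher and 1 lower, of 15 T lineage factors 0 and 0, and of 17 signalling genes 0 and 0. The list medians were -0.45, -0.04 and -0.08, and so few calls are near the share of all genes. Of 12 maturation and egress genes 5 were past 2-fold higher and 1 lower in WD, and without the set-aside cells 1 of 9 was higher and 0 lower. The lower double-positive stage gene was Bcl2l1, with 20 UMIs in WD and 39 in chow (log2 ratio -1.08), short of 2-fold without the set-aside cells (18 and 39 UMIs, -0.99). Cd4 had 71 UMIs in WD and 110 in chow (-0.77) and Ccr9 186 and 159 (0.09).

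The largest differences were carried by few cells. The 10 genes highest in WD were Ly6c2, Siglech, Rnase6, Ccl4, Unc93b1, Nkg7, Tyrobp, Plac8, Ifitm2 and Ccl5. Siglech had 33 UMIs in 3 WD cells and 0 in chow, at least 9.99-fold higher, and Ly6c2, a surface protein of monocytes and effector T cells, 53 UMIs in 9 WD cells and 0 in chow, at least 16.0-fold. Ccl4 had 124 UMIs in WD and 7 in chow, and 9 and 7 without the set-aside cells. Ccl5, a chemokine of effector cells, was 4.55-fold higher in WD (3.64 to 5.74) with 471 UMIs against 94; without the set-aside cells it had 5 against 16 and was lower (0.336-fold, 0.0963 to 0.96). Of the 10, the intervals of 8 included 1 without the set-aside cells, and 5 stayed past 2-fold, Ly6c2 and Rnase6 among them on 1 UMI against 0. Plac8 was among those, 2.69-fold higher (1.65 to 4.51).

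The 10 lowest in WD were Cxcl10, Ccr7, Cxcl2, Gbp2, Zbtb1, AY036118, Pdcl3, Nub1, Ndufa9 and Gm5914. Cxcl10, a chemokine induced by interferon, had 7 UMIs in 1 WD cell and 52 in 1 chow cell, and Ccr7, the lymph node homing receptor, 11 UMIs in WD and 71 in chow, and 5 and 5 without the set-aside cells. Zbtb1, a factor needed for lymphocyte development in mice, was spread over cells: 8 UMIs in 7 WD cells and 31 in 26 chow cells, 0.234-fold (0.0931 to 0.521), and 8 and 30 UMIs without the set-aside cells. Pdcl3 had 7 UMIs in 7 WD cells and 24 in 24 chow cells, and Gm5914 17 in 15 and 46 in 35. AY036118 was lower in WD in mature T-like cells too (32.7 CPM, against 148 in chow). Without the set-aside cells 1.62% of 3202 genes were past 2-fold higher and 3.5% past 2-fold lower in WD.

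**Figure D5:**
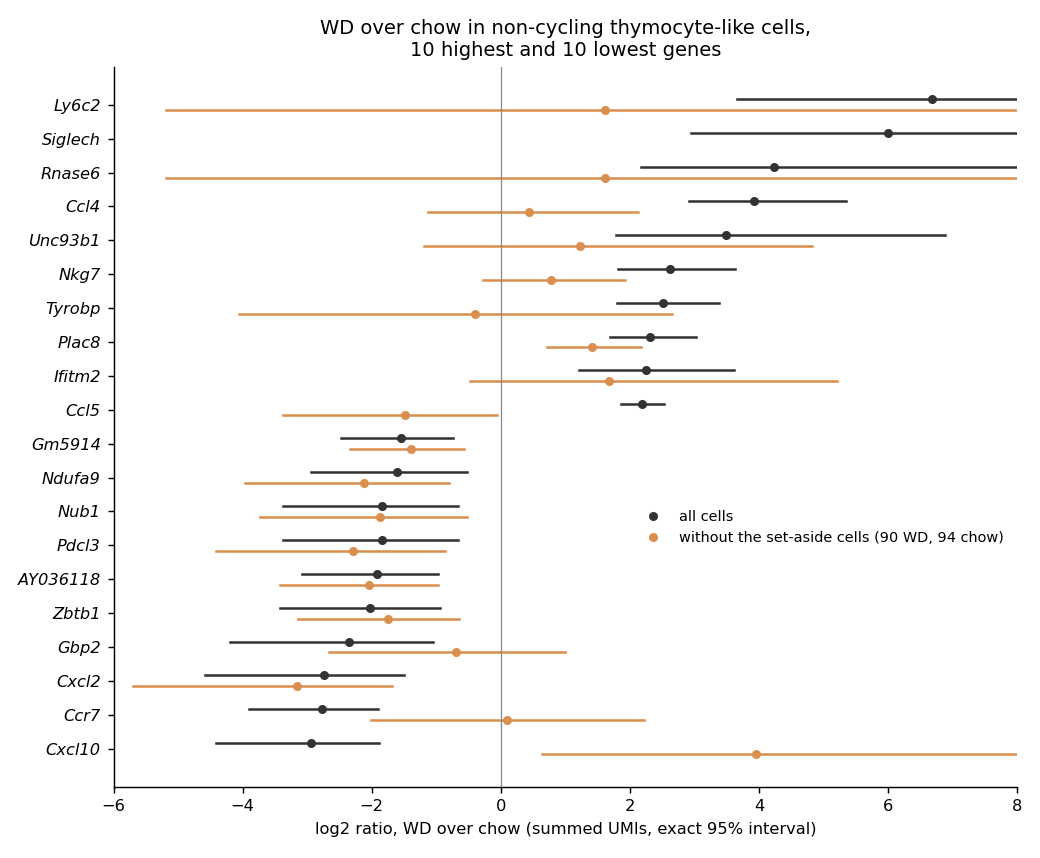
Log2 ratio of summed UMIs, WD over chow (x axis), in non-cycling thymocyte-like cells for the 10 highest and 10 lowest genes (y axis), with exact 95% intervals, for all cells (black) and without the set-aside cells (orange); intervals reaching the edge run past it. Ccl5, Tyrobp, Ccr7 and Cxcl10 change side, and Zbtb1, Pdcl3, Cxcl2 and Gm5914 keep intervals below 0; Siglech has no UMI left.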

How the data were processed

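Viable CD45+ cells of 10 pooled aortas per diet were profiled with 10x Single Cell 3' v2 chemistry, 1 library for WD and 1 for chow. The authors deposited UMI counts per gene and cell, made with Cell Ranger and STAR on mm10 per the submitters' processing notes; the notes name no versions. Each UMI counts a molecule near the 3' end, so genes are compared with themselves across cells and not with each other. The files list 27998 genes, of which 27645 IDs matched the annotation used for positions; T cell receptor and immunoglobulin constant genes are not analysed here.

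Cells with at least 200 genes and at most 10% mitochondrial UMIs were kept: 2061 of 2077 in WD and 896 of 909 in chow. The libraries held 8782901 and 4608033 UMIs, 1414 to 28099 and 1493 to 25141 per cell. Counts were summed per cell group and library and scaled to a common total (CPM). Log2 ratios add 0.5 UMIs to each side, multiplied by that side's total over the mean total of both sides. A gene was measured with at least 20 UMIs over both sides (10 UMIs per library for the split by Cd8). A gene counts as higher or lower past 2-fold, in both libraries where cell groups are compared. With 1 library per diet there is no test. Intervals are exact 95% intervals (Clopper-Pearson for shares, conditional binomial for ratios). A bound against 0 UMIs uses a floor of 3 UMIs per group. Cells were thinned to 1000 UMIs where depth matters.

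Members and gene lists were chosen with earlier results of these data known. Named genes are the 12 highest and 12 lowest over mature T-like cells and the 6 over cycling cells by the smaller of both libraries' log2 ratios, the 10 highest and 10 lowest between diets with at least 30 UMIs and an interval without 1, up to 6 of each list, and the markers. The set-aside cells, the split by Cd8 and the genes named with it were chosen after their values were seen. Calculations were tested on simulated data and used Python 3.11.15, numpy 2.4.6, scipy 1.17.1, pandas 2.3.3, scanpy 1.11.5 (Scrublet) and matplotlib 3.10.9. Some genes that the lists and counts include are not reported by name here.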

Additional observations from a re-analysis of the deposited data

How the results depend on the processing

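With 1 library per diet no replicate could be left out, and no difference between diets has a replicate check. No paired analysis was possible because each diet has 1 library and no test was run. Shares were 6.50% in WD and 13.7% in chow with a rule sum of at least 1, and 3.59% and 7.59% with no B, C1q or Lyz2 UMI; chow stayed above WD. Thinning to 1000 UMIs gave Cd4 with Cd8 in 28.7% of WD and 39.6% of chow cells and a selection sum of 3 or more in 5.94% and 5.21%. Counts past 2-fold moved with the number of genes measured. Over mature T-like cells they were 293 higher and 185 lower of 2365 genes when thinned and 279 and 167 of 2908 at a minimum of 50 UMIs (586 and 304 of 5522 as reported). Over cycling cells they were 103 and 152 of 1409 when thinned (450 and 648 of 5333), and for WD over chow 39 and 65 of 1623 when thinned and 19 and 23 of 1613 at 50 UMIs (115 and 128 of 3630). Without the set-aside cells 52 of 3202 were higher in WD.

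Over mature T-like cells, the double-positive stage median in WD was 3.91 when thinned, 3.81 as a mean over cells and 4.06 at 50 UMIs. The effector memory median was -1.95 in WD and -2.55 in chow at a rule sum of at least 3, and -2.33 in WD without the set-aside cells, where the egress median in chow was -2.65 and the mature B median in chow -1.79 instead of 1.16. Over cycling cells, the effector memory median, 1.63 in WD and 0.96 in chow, was -0.52 and -0.18 when thinned and 0.47 in WD without the set-aside cells, and the selection median in chow was 1.62 when thinned. Ccl5 between diets was -1.49 instead of 2.18 without the set-aside cells. The double-positive stage median of the cells without Cd8 was -4.08 in WD and -1.38 in chow when thinned. The cause of these changes was not tested.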

Other observations

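Further lists were read against mature T-like cells, where 10.6% of all genes were past 2-fold higher and 5.51% lower. Of 16 type I interferon response genes 5 were past 2-fold lower and 0 higher, with medians of -0.76 in WD and -1.58 in chow. Ifi27l2a, an interferon-induced membrane protein gene, was at 238 CPM in WD and 141 in chow, against 871 and 1011 in mature T-like cells (log2 ratios of -1.87 and -2.83, and -2.57 and -2.98 without the set-aside cells). Of 14 chromatin genes 3 were higher and 1 lower. Hdac7, a histone deacetylase exported from the nucleus after receptor signals in thymocytes, had log2 ratios of 2.01 and 2.13, Smarca4, the motor of the BAF remodelling complex, 1.97 and 1.95, and Lmna, a lamin of the nuclear envelope, -1.82 and -2.67. Of 9 glucocorticoid response genes 2 were higher: Fkbp5, a chaperone partner of the glucocorticoid receptor, with 31 UMIs in WD and 38 in chow (2.88 and 3.03), and Ddit4, an inhibitor of mTOR (1.63 and 1.80). Of 11 survival and death genes 4 were higher and 1, Bcl2, lower. Trp53inp1, a p53 target, had 1.84 and 2.11. Sox4, a factor of lymphocyte precursors, was at 626 CPM in WD and 569 in chow, against 34.8 and 32.2. Of 15 glycolysis and lactate genes 2 were higher, Ldhb and Tpi1 (1.87 and 1.35), and 1 lower, Aldoa (-1.08 and -1.22), which is near the shares of all genes.

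Among the 12 genes highest over mature T-like cells, 6 lie in 3 neighbouring pairs in the GENCODE vM21 annotation of mm10. Endou (chr15:97711015-97731339, minus strand) and Rapgef3 (chr15:97744770-97767972, minus strand) are 13431 bases apart. Gm525 (chr11:89073841-89093040, plus strand) and Dgkeos (chr11:89064729-89069098, plus strand) are 4743 bases apart, and Tctex1d1 (chr4:102978606-103005594, plus strand) and Wdr78 (chr4:103038065-103114555, minus strand) 32471. The pairs were seen after the genes were ranked, and how often pairs of expressed genes lie this close was not tested.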
